A study of Mus musculus with 8 samples.

Results

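The genes described here encode the proteins of the cytosolic ribosome. They were the genes that the array annotation names Rpl, Rps, Rplp or Rpsa with a number or letter, without ribosomal protein S6 kinases, binding proteins and pseudogenes, and with the same kind of name in both annotation versions of the files. By that rule they were 84 genes on 139 of the 41174 probes, and 80 genes on 127 probes passed the filter on dim and flagged spots, of 14807 genes kept in all. RNA came from the mouse line RAW264.7, whose cells resemble macrophages, treated with Lactobacillus acidophilus MTCC-10307 or with Bacillus clausii MTCC-8326 at 100 bacteria per cell for 1, 2, 4 or 6 h, and from untreated cells of the same time. Each of the 8 two-colour arrays set treated RNA (Cy5) against time-matched untreated RNA (Cy3), with RNA of 3 cultures pooled per array. Values below are therefore log2 ratios of treated over untreated cells, 1 array per bacterium and time, with the dyes never exchanged. Slide and scan coincide with the bacterium and slide position with the time, so these cannot be told apart, nor can dye and treatment. The labels do not state if the arrays of one time share their untreated pool. The label of a macrophage line was borne out by its markers, since all 7 macrophage genes listed (Lyz2, Cd14, Csf1r, Cd68, Itgam, Adgre1 and Fcgr1) were kept, while 8 of 20 markers of other cell types were.

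Ribosomal proteins are made in near equal numbers and assembled with ribosomal RNA into a small (40S) subunit, which reads the mRNA, and a large (60S) subunit, which joins amino acids. Their mRNAs are among the most abundant of a growing cell and begin with a run of pyrimidines, the TOP motif, through which the kinase mTORC1 and the protein Larp1 set how much of them is translated. Their control is thus known to be largely translational, and an array of total RNA reads mRNA amount and not translation.

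The TOP letters are shown here because the family is known for them and the naming rule did not use them. RefSeq promoter windows (GRCm38.p6) were held for 63 of the 84 genes. A C at the annotated start followed by at least 4 pyrimidines stood in 13 of the 63 (20.6%), against 3.01% of 27025 gene symbols in the table. The same letters began within 10 bases either side of the start in 60.3% of the ribosomal protein genes and 34.4% of all symbols. The windows below give 5 bases before the start and 15 from it, with the pyrimidine run from the start in capitals.
Rpl15, chr14:18270972-18270991, minus strand: gccttCTTCCTTTCCTCTgg
Rpl35, chr2:39005117-39005136, minus strand: ctttcCTCTTTCTCTCgaac
Rps10, chr17:27635230-27635249, minus strand: cgcccCTTCCTTTCCagcct
Rps18, chr17:33955651-33955670, minus strand: ccgctCTCTCTTCCacagga
Rps6, chr4:86857353-86857372, minus strand: cgggcCTCTTTTTCgtgacg
Rpl38, chr11:114668575-114668594, plus strand: tcgttCTTTCCCCgttctct
The run was 13 bases long in Rpl15, the longest of the 13, and 5 bases in Rplp2 and Rps21, the shortest. Of the genes starting on such a run, Rps18 averaged 0.63 and 0.66 in cells treated with L. acidophilus and B. clausii, while Rps10 averaged 0.07 and -0.03, so the genes that share the motif did not share one ratio. The median over the 13 was 0.32 and 0.19 with L. acidophilus and B. clausii, and over the 48 other genes with a window that were kept 0.32 and 0.27.

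After loess normalisation most ribosomal protein mRNAs stood above untreated cells by a small amount in both treatments, but with arrays only centred on their medians 17 rose and 22 fell with B. clausii (5.68% and 58.5% of all genes did so under that centring), and 53 rose and 5 fell with L. acidophilus (9.04% and 30.4%). With L. acidophilus 61 of 80 genes rose and 4 fell (limma, adjusted p under 0.05), against a background of 23.7% of all genes tested that rose and 18.5% that fell. With B. clausii 59 rose and 5 fell, against 23.0% and 21.1% of all genes. The median over the 80 was 0.32 with L. acidophilus and 0.27 with B. clausii, and over all genes 0.02 and 0.01. By array the median ran from 0.26 to 0.38 over the 4 L. acidophilus arrays and from 0.25 to 0.30 over the 4 B. clausii arrays. Between 61 and 73 of the 80 genes were above 0 on each array. As RNA was taken from whole cultures, fewer cells of a type and less RNA per cell cannot be told apart.

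**Figure D1:**
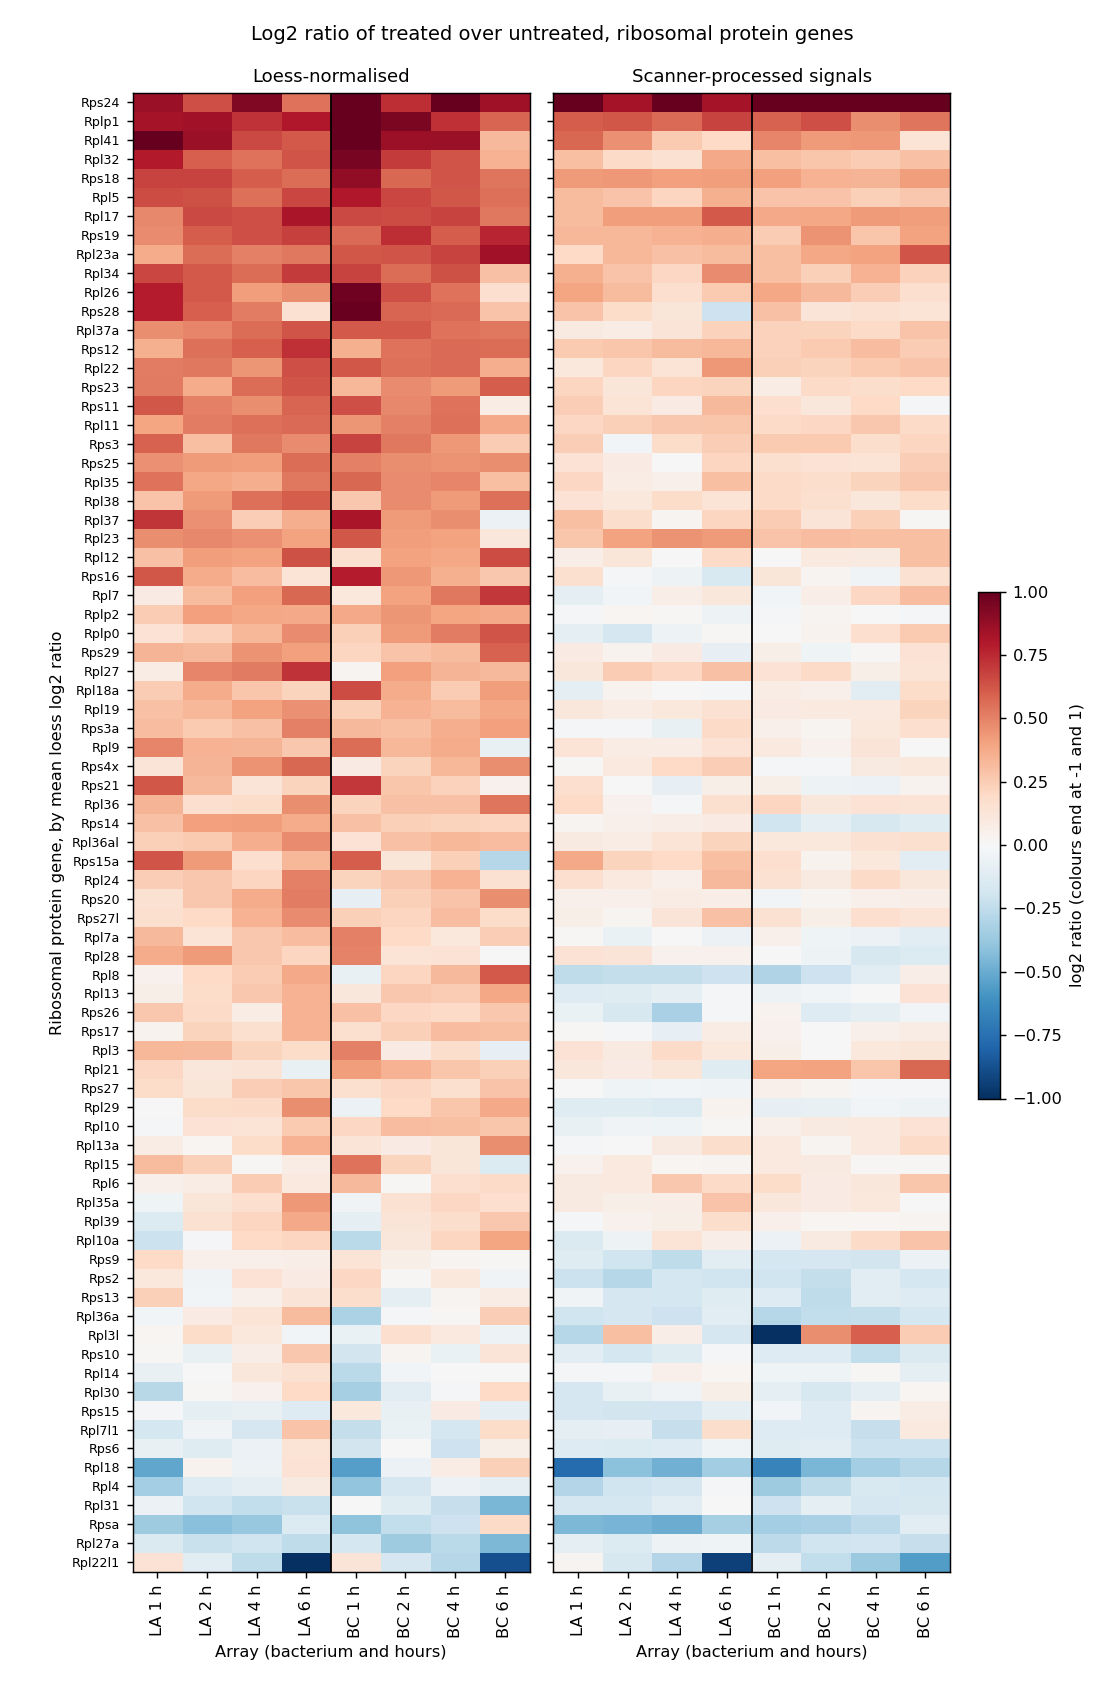
Log2 ratio of treated over untreated cells for the ribosomal protein genes reported by name (rows, by mean loess ratio) on 8 arrays (columns, L. acidophilus as LA and B. clausii as BC at 1, 2, 4 and 6 h), with loess-normalised ratios on the left and scanner-processed signals on the right. Most rows are red on the left (median 0.32 for L. acidophilus and 0.27 for B. clausii) and paler on the right (0.06 and 0.07), while Rps24, Rplp1 and Rpl41 stay high and Rpl22l1 and Rpsa low on both sides.

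The size of that shift went with brightness, the mean log2 intensity of a probe over both channels and all arrays. Of the 80 genes, 72 had a brightness of 12.6 or more, the level that 10% of all genes reach. Among genes with a brightness of 15 or more, the median log2 ratio over the 8 arrays was 0.37 for 57 ribosomal protein genes and 0.26 for 151 other genes. Of those same groups, 50 of 57 ribosomal protein genes and 104 of 151 other genes rose with L. acidophilus, and 47 of 57 and 102 of 151 with B. clausii. A shift of much of this size was therefore measured in equally bright genes of other kinds. With the signals as processed by the scanner software, which were normalised to brightness differently, the medians in that group were 0.08 and 0.02. Over the 80 genes, 25 rose in those signals and 9 fell with L. acidophilus (background 17.8% and 14.3%), and 29 rose and 13 fell with B. clausii (24.6% and 18.9%). The median over the 80 was then 0.06 with L. acidophilus and 0.07 with B. clausii. With arrays centred on their medians and not fitted to brightness, it was 0.35 with L. acidophilus and -0.05 with B. clausii, where all genes had a median of -0.25 with B. clausii. What share of the shift belongs to brightness was not tested. The genes called under both signal kinds in the same direction were 25 higher and 2 lower with L. acidophilus and 28 higher and 5 lower with B. clausii. The share of all genes called under both was not computed, so these counts have no background.

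**Figure D2:**
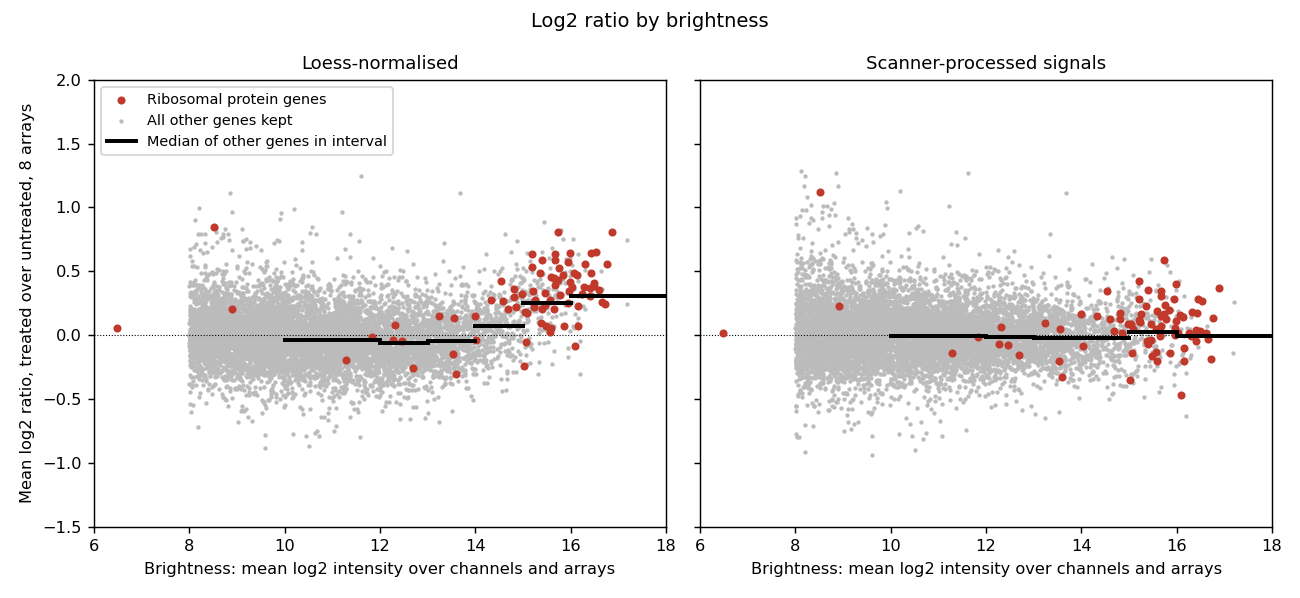
Mean log2 ratio of treated over untreated cells over 8 arrays (vertical axis) by brightness, the mean log2 intensity (horizontal axis), for ribosomal protein genes (red) and other genes kept with a brightness above 8 (grey). Black lines are medians of the other genes in each brightness interval, and in the loess ratios they lie at 0.25 and 0.31 in the 2 brightest intervals, against 0.03 and -0.00 in the processed signals.

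The stalk is the arm of the 60S subunit that calls in elongation factors, built of Rplp0 with pairs of Rplp1 and Rplp2. Rplp1 had log2 ratios of 0.83, 0.84, 0.72 and 0.80 over 1, 2, 4 and 6 h with L. acidophilus, against 1.04, 0.94, 0.73 and 0.58 with B. clausii. It was high on every array, and averaged 0.80 ± 0.05 and 0.82 ± 0.05 (SE of the fit, adjusted p 6.2e-05 and 2.1e-05). Processed signals gave 0.62 and 0.56, and their intensities at 6 h were 101449 in cells treated with L. acidophilus and 63518 in untreated cells. Rplp2 averaged 0.36 and 0.40 by loess but -0.01 and -0.00 in processed signals, and Rplp0 0.30 and 0.45 by loess but -0.08 and 0.11. Of the stalk proteins only Rplp1 was called under both signal kinds, and no test of Rplp1 against the other two was made.

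Of the other 60S genes, 35 of 47 rose with each bacterium, 3 fell with L. acidophilus and 4 fell with B. clausii. Rpl41, which encodes the smallest protein of the ribosome, had the largest mean with L. acidophilus. Its log2 ratios were 1.11, 0.86, 0.66 and 0.61 with L. acidophilus, against 1.17, 0.86, 0.86 and 0.32 with B. clausii, highest at 1 h and lowest at 6 h in both. The means were 0.81 ± 0.06 and 0.80 ± 0.06 (adjusted p 6.9e-05 and 2.7e-05), and 0.37 and 0.37 in processed signals. Rpl17, Rpl32 and Rpl34 rose by 0.65, 0.64 and 0.63 with L. acidophilus and by 0.63, 0.66 and 0.54 with B. clausii. Rpl23a, at the tunnel by which new chains leave the ribosome, rose by 0.49 and 0.69. In processed signals these genes were called with both bacteria too, at 0.44 and 0.40 for Rpl17, 0.25 and 0.28 for Rpl32, 0.33 and 0.28 for Rpl34 and 0.29 and 0.43 for Rpl23a.

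Rpl5 and Rpl11 bind 5S ribosomal RNA and, when free of ribosomes, the p53 ubiquitin ligase Mdm2. Rpl5 had log2 ratios of 0.65, 0.63, 0.55 and 0.67 with L. acidophilus, against 0.80, 0.67, 0.62 and 0.55 with B. clausii. Rpl11 had 0.39, 0.51, 0.55 and 0.57 with L. acidophilus, against 0.44, 0.51, 0.55 and 0.38 with B. clausii. Both rose on all 8 arrays and were called under both signal kinds, at 0.29 and 0.27 for Rpl5 and 0.25 and 0.21 for Rpl11 in processed signals. In the same cells Trp53, the p53 gene, fell by 0.38 and 0.50, and Mdm2 averaged -0.04 with L. acidophilus (adjusted p 0.57) and fell by 0.30 with B. clausii. Of the 4 genes listed around p53, 0 rose and 1 fell with L. acidophilus, and 1 rose and 2 fell with B. clausii. Processed signals gave the same counts. The list is too short to set apart from the shares of all genes given above.

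Rpl27a, Rpl31 and Rpl4, all 60S proteins, were low. Rpl27a had log2 ratios of -0.14, -0.22, -0.20 and -0.25 with L. acidophilus, against -0.18, -0.35, -0.27 and -0.45 with B. clausii. It fell by 0.20 and 0.31. Its L. acidophilus call was lost in processed signals (-0.08, adjusted p 0.12) and without the 4 h L. acidophilus array (adjusted p 0.054), while processed signals gave -0.22 with B. clausii (adjusted p 0.0088). Rpl31 fell by 0.18 and 0.20, a call that was lost with L. acidophilus without its 1, 2 or 4 h array (adjusted p 0.098, 0.14 and 0.11) and with B. clausii without its 4 or 6 h array (0.050 and 0.059), as without both 2 h or both 4 h arrays for L. acidophilus and both 6 h arrays for B. clausii. In processed signals Rpl31 was at -0.12 and -0.16 (adjusted p 0.084 and 0.033). Rpl4 fell by 0.18 with B. clausii (adjusted p 0.0088, and 0.053, 0.056 and 0.13 without the 2 h B. clausii array, its 6 h array and both 1 h arrays) and averaged -0.12 with L. acidophilus (adjusted p 0.051). In processed signals Rpl4 was called lower with both, at -0.17 with L. acidophilus and -0.23 with B. clausii. Without time as a term in the fit, Rpl31 was called with neither bacterium (adjusted p 0.096 and 0.064) and Rpl4 not with B. clausii (0.12).

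Of the 30 genes of the 40S subunit, 23 rose and 1 fell with L. acidophilus, and 21 rose and 1 fell with B. clausii. Rps19, mutated in Diamond-Blackfan anaemia in humans, had log2 ratios of 0.47, 0.61, 0.64 and 0.68 with L. acidophilus, against 0.57, 0.74, 0.60 and 0.76 with B. clausii, and averaged 0.34 and 0.35 in processed signals. These are values of its brightest probe, and its other kept probe averaged -0.01 and 0.11 by loess. Rps18 rose by 0.63 and 0.66, and by 0.42 and 0.38 in processed signals. Rps3, at the entry of the mRNA channel, rose by 0.47 and 0.47 by its brightest probe, while its other kept probe averaged 0.18 and 0.00. In processed signals Rps3 was at 0.16 with L. acidophilus (adjusted p 0.077) and 0.23 with B. clausii (0.027), and median centring ended its B. clausii call (0.15, adjusted p 0.065). Rps6, the substrate of S6 kinase, averaged -0.03 and -0.08 and passed the test with neither by loess (adjusted p 0.62 and 0.18). With B. clausii Rps6 was called lower in processed signals (-0.17, adjusted p 0.028), with median centring (-0.43, 2.3e-05) and with a loess span of 0.1 (-0.24, 0.0032), which also called it with L. acidophilus (-0.18, 0.013). Rpl13a, a 60S protein that in human monocytes leaves the ribosome to silence inflammatory mRNAs, rose by 0.16 and 0.20, and its call with L. acidophilus was lost without the 1, 2 or 4 h array of that bacterium (adjusted p 0.061, 0.081 and 0.16). Rpl13a was called with neither in processed signals (0.07 and 0.10, adjusted p 0.16 and 0.052) or without the time term (0.17 and 0.085).

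Rpsa, the 40S protein also known as the laminin receptor precursor, was the one 40S gene that fell. Its log2 ratios were -0.36, -0.42, -0.38 and -0.13 with L. acidophilus, against -0.40, -0.25, -0.21 and 0.19 with B. clausii. Only the 6 h B. clausii array was above 0. Rpsa fell by 0.32 ± 0.05 with L. acidophilus (adjusted p 0.0015) and by 0.17 ± 0.05 with B. clausii (adjusted p 0.023). The B. clausii call was lost without its 1, 2 or 4 h array (adjusted p 0.18, 0.10 and 0.11) and without the time term (0.20). Processed signals, at -0.44 and -0.26, were called with both bacteria, and on each of the 8 arrays the treated signal was below the untreated one, 38574 against 52687 at 1 h with L. acidophilus.

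Rps24 had the largest mean with B. clausii, and its values depended on the probe. The probe that stood for it, which is dim (brightness 8.52) and lies at chr14:25314669-25314728 (mm9), gave 0.86, 0.65, 0.93 and 0.54 with L. acidophilus, against 1.04, 0.74, 1.19 and 0.85 with B. clausii. A bright probe (14.6), flagged on the 1 h L. acidophilus array and so not used, averaged 0.30 over the other 3 L. acidophilus arrays and 0.18 over the B. clausii arrays. The third probe, downstream and dim (7.99), averaged -0.27 and -0.25. The means of 0.75 and 0.95, or 1.00 and 1.25 in processed signals, are therefore those of one stretch of Rps24 and not of the gene.

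Such splits were common. Of 38 genes with more than 1 kept probe, 18 had probes on both sides of 0 by the mean of the 8 arrays, and the median range between probes of a gene was 0.35. After Rps24 the widest were Rpl23, with probes at 0.42 and -0.60, and Rpl5, with 0.64 for the bright probe described above and -0.17 for a dimmer one. The brighter of the outermost probes had the higher ratio in 29 of 35 genes by loess and in 25 of 35 in processed signals. The more downstream had it in 12 of 35 by loess. Over the 127 kept probes Spearman's rho between brightness and mean ratio was 0.62 by loess and 0.23 in processed signals, a description across probes that share arrays and genes. The rho between the share of G in the probe and the mean loess ratio was 0.21.

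Probes of Rpl7 and Rplp0 are printed because pairs of them answered in opposite directions. Each 60-base sequence has a reading frame open from end to end, which by itself does not place it in the coding part. Sequences are the array's own, in the sense of the mRNA, with no part marked, and positions are those of the files (mm9). The first Rpl7 probe spans more than its 60 bases on the genome.
Rpl7, chr1:16092882-16093279, minus strand: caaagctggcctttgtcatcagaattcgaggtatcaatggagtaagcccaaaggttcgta
Rpl7, chr1:16093603-16093662, minus strand: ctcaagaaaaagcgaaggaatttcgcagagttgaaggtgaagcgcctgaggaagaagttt
Rplp0, chr5:116011423-116011482, plus strand: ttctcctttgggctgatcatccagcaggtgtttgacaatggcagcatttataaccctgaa
Rplp0, listed as unmapped in the files: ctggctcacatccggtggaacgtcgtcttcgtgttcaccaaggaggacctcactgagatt
On the L. acidophilus arrays the first Rpl7 probe gave 0.08, 0.31, 0.41 and 0.58, and on the B. clausii arrays 0.10, 0.40, 0.53 and 0.70. The second gave -0.03, -0.23, -0.33 and -0.23 with L. acidophilus, against -0.03, -0.49, -0.26 and -0.64 with B. clausii. Between them the sign was opposite on all 8 arrays. The first Rplp0 probe averaged 0.30 and 0.45 with L. acidophilus and B. clausii, and the second, printed in 10 spots per array, -0.15 and -0.04. A further kept probe of Rpl7 and of Rplp0 is not printed. That of Rpl7 averaged 0.31 with each bacterium and was above 0 on all 8 arrays, as was the probe standing for Rpl7. That of Rplp0 averaged -0.15 and -0.21 with L. acidophilus and B. clausii. The probe standing for Rplp0 thus differed in the sign of its means from the other kept Rplp0 probes. Averaging all kept probes of each gene gave a median over the 80 genes of 0.21 with L. acidophilus and 0.20 with B. clausii.

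**Figure D3:**
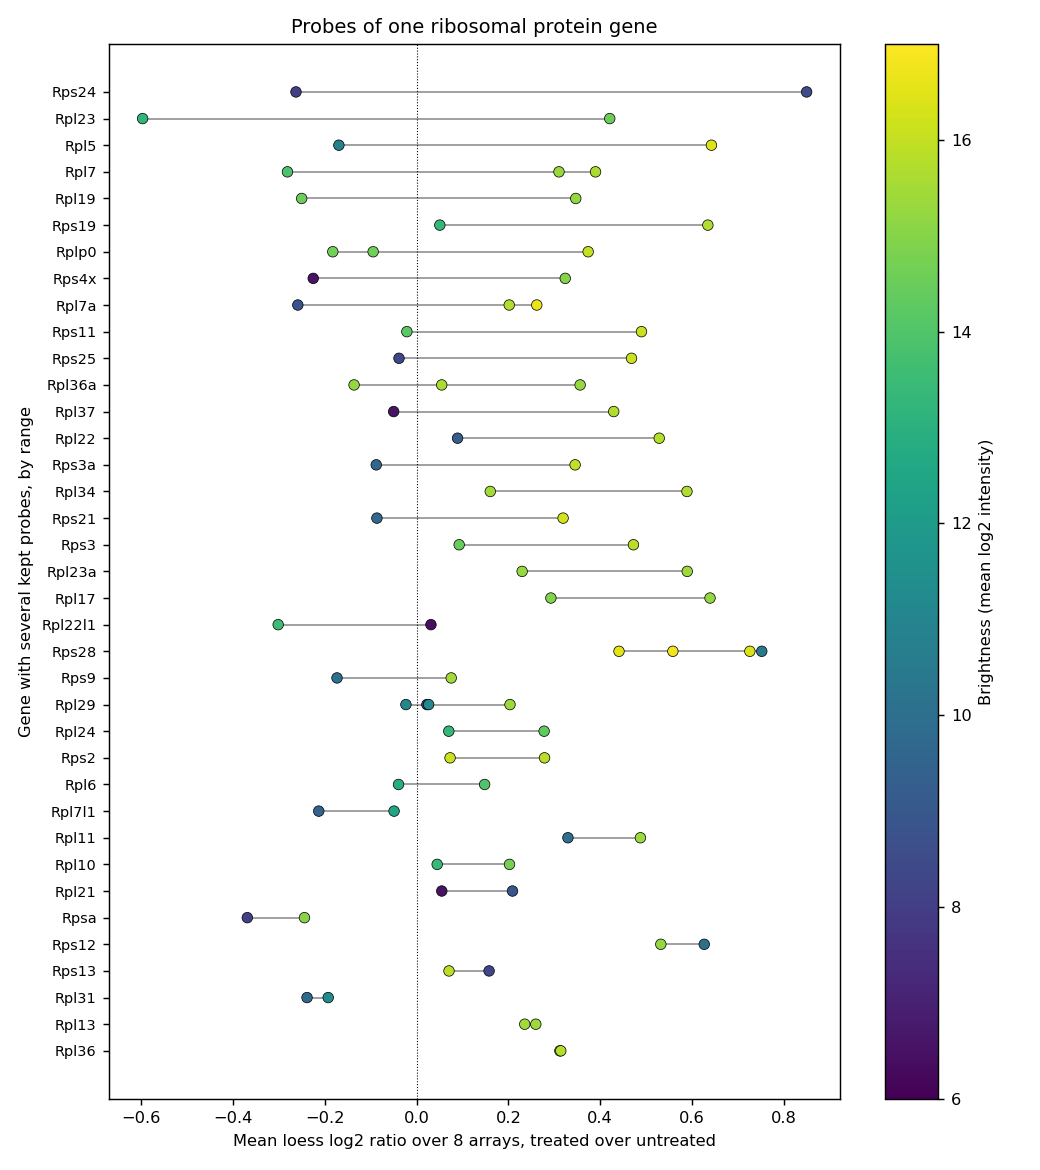
Mean loess log2 ratio of treated over untreated cells over 8 arrays (horizontal axis) for each kept probe of ribosomal protein genes with several, ordered by the range between probes, with colour for brightness. Lines that cross 0 join probes of opposite sign, and Rps24, Rpl23 and Rpl5 have the widest ranges.

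The paralogs are near copies of ribosomal protein genes, often used in one tissue. Rpl22l1 is the copy of Rpl22, which in mouse represses it. The sequences of their used probes are given because by these probes the pair moved apart.
Rpl22l1, chr3:28706197-28706256, plus strand: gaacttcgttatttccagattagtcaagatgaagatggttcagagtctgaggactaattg
Rpl22, chr4:151704158-151704217, plus strand: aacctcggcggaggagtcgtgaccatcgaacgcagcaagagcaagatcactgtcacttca
Rpl22l1 had log2 ratios of 0.15, -0.11, -0.25 and -0.99 over 1, 2, 4 and 6 h with L. acidophilus, against 0.13, -0.17, -0.29 and -0.88 with B. clausii. Each later time was lower than the one before it with both bacteria. Processed intensities at 6 h were 6950 in cells treated with L. acidophilus and 13266 in untreated cells, and 11822 in cells treated with B. clausii and 17404 in untreated cells. At 1 h they were 11962 in cells treated with L. acidophilus and 11749 in untreated cells, and 13204 in cells treated with B. clausii and 14072 in untreated cells. Rpl22 had 0.51, 0.53, 0.44 and 0.64 with L. acidophilus, against 0.62, 0.55, 0.57 and 0.36 with B. clausii, and averaged 0.22 and 0.25 in processed signals. Rpl22l1 fell by 0.30 ± 0.04 with each bacterium (adjusted p 0.00089 and 0.00060), which rested on 6 h: without both 6 h arrays the means were -0.07 and -0.11 (adjusted p 0.19 and 0.068). Without the time term, which takes up the change between times, the adjusted p was 0.26 with each. The second probe of Rpl22l1 was not well above background in untreated cells on any array. That of Rpl22, dim (brightness 9.25), averaged only 0.07 and 0.11, with -0.11 and -0.07 at 1 h.

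The other pairs moved less. Rps27l and Rps27 rose by 0.30 and 0.21 with L. acidophilus and by 0.24 and 0.20 with B. clausii, and the Rps27 probe is placed by the files on chromosome 9, while RefSeq has the gene on chromosome 3. In processed signals Rps27l was at 0.13 with each (adjusted p 0.086 and 0.070) and Rps27 at -0.03 and 0.01. Rpl36al rose by 0.33 and 0.27, and by 0.13 with each in processed signals. Rpl36a rose by 0.13 with L. acidophilus (adjusted p 0.040, lost without any 1 of the 4 L. acidophilus arrays and without the 2 h or 4 h B. clausii array) and averaged -0.02 with B. clausii, against -0.17 and -0.24 in processed signals. Rpl7l1 averaged -0.02 and -0.08 and passed with neither by loess (adjusted p 0.66 and 0.15). Rpl7l1 was called lower with B. clausii when its probes were averaged (-0.17, adjusted p 0.0080) and with median centring (-0.51, 2.2e-06), and with both bacteria without both 6 h arrays (-0.12 and -0.16, adjusted p 0.046 and 0.017). Rpl3 rose by 0.27 and 0.17. The B. clausii call of Rpl3 was lost in processed signals (0.07, adjusted p 0.13), without the time term (0.16) and without the 1, 2 or 4 h B. clausii array (0.30, 0.062 and 0.19, at 0.08 without the first) or the 4 h L. acidophilus array (0.059). Rpl3l, its form in muscle, was not well above background in untreated cells on any array, and Rpl39l and Rps4y2 (now Rps4l) on no array in either channel. Rps4x, whose gene is on the X chromosome, rose by 0.37 and 0.28 by its bright probe. With its dim second probe (-0.33 and -0.12) averaged in, Rps4x was at 0.02 and 0.08 (adjusted p 0.70 and 0.14), and processed signals gave 0.14 and 0.04 (adjusted p 0.035 and 0.32).

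No ribosomal protein gene passed the test of a difference between the bacteria. In L. acidophilus minus B. clausii 0 of 80 genes passed limma at an adjusted p under 0.05, near the background of 0.642% of all genes. An unadjusted p under 0.05 was reached by 8 of the 80, against 3359 of all 14807 genes. The difference had a median of 0.01, with quartiles of -0.04 and 0.06. Among the smallest p-values were those of Rpl27 (0.18) and Rpl36a (0.15) among those higher with L. acidophilus and of Rpl21 (-0.23), Rps24 (-0.21) and Rpl23a (-0.20) among those lower, with adjusted p between 0.098 and 0.20. Centring each array on its median, without a fit to brightness, gave 68 genes higher with L. acidophilus and 0 lower (limma), where 32.8% of all genes were higher and 0.561% lower. As each bacterium has its own slide, that difference and the slide cannot be told apart.

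Over time members changed in both directions, with a share lower late near that of all genes. In the mean of 4 and 6 h minus the mean of 1 and 2 h, 17 genes were higher late and 9 lower late. These were 21.25% and 11.25% of the 80, against a background of 12.2% and 12.3% of all genes. The median over the 80 was 0.05. Among genes with a brightness of 15 or more, 11 of 57 ribosomal protein genes were higher late and 8 lower, against 19 and 33 of 151 others. All 26 had the same sign with both bacteria. Their selection favours this, as the test averages over the bacteria and counts differences between them as noise. That agreement is therefore no separate evidence for the calls. Rpl18 was low at 1 h and near untreated cells after, with -0.52, 0.03, -0.05 and 0.14 with L. acidophilus, against -0.55, -0.05, 0.07 and 0.24 with B. clausii (late minus early 0.37 ± 0.06, adjusted p 0.0037). In processed signals Rpl18 fell by 0.50 and 0.44 over all times (adjusted p 0.0074 and 0.0039). Rpl10a had -0.22, -0.02, 0.20 and 0.22 with L. acidophilus, against -0.27, 0.11, 0.21 and 0.39 with B. clausii (0.35, adjusted p 0.0050). Rpl7, Rpl8 and Rpl30 were higher late by 0.33, 0.30 and 0.29. With all kept probes averaged, Rpl7 was at 0.06 and did not pass (limma, adjusted p 0.50). Over all times Rpl8 rose by 0.22 with L. acidophilus by loess but fell by 0.23 in processed signals. Of those lower late, Rpl22l1 changed most (-0.60 ± 0.06, adjusted p 0.00046). Rpl41, Rps28, Rpl26, Rpl37 and Rps15a were lower late by values of -0.38, -0.36, -0.35, -0.35 and -0.33. With arrays only centred on their medians they were at -0.12, -0.10, -0.11, -0.12 and -0.10, and none of them passed (limma, adjusted p 0.52 to 0.61). Rps28 had 0.79, 0.60, 0.51 and 0.15 with L. acidophilus, against 0.99, 0.58, 0.57 and 0.29 with B. clausii, highest at 1 h and nearest to untreated cells at 6 h. These are values of its used probe, and with all kept probes averaged its late minus early value was -0.06 (limma, adjusted p 0.45). In processed signals Rps28 was below untreated cells on the 6 h L. acidophilus array, at 118340 against 136315, and above them on the other 7. Of the 7 macrophage markers 4 were lower late, and their part in these values was not tested.

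The timing depended on the 1 h arrays, on the signals, on the fit to brightness and, for some genes, on the probe. In processed signals 0 of 80 genes passed (limma, background 8.80%), and 61 of 80 kept the sign. An unadjusted p under 0.05 was reached there by 11 of the 80, against 4319 of all 14807 genes. Without both 1 h arrays 1 gene passed, and without both 6 h arrays 4. Without the 2 h or the 4 h L. acidophilus array 9 passed, without the 1 h or the 2 h B. clausii array 11, and without its 4 h array 13. Rpl22l1 passed in every one of the 12 fits that left out arrays, and in processed signals was at -0.42 (adjusted p 0.083). Rpl18 had an adjusted p of 0.42 without both 1 h arrays and 0.055 without both 6 h arrays. Rpl41 had 0.057 without the 4 h L. acidophilus array. Rpl8 lost its call without any of 5 single arrays (adjusted p 0.058 to 0.068), and Rps15a likewise without any of 5.

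**Figure D4:**
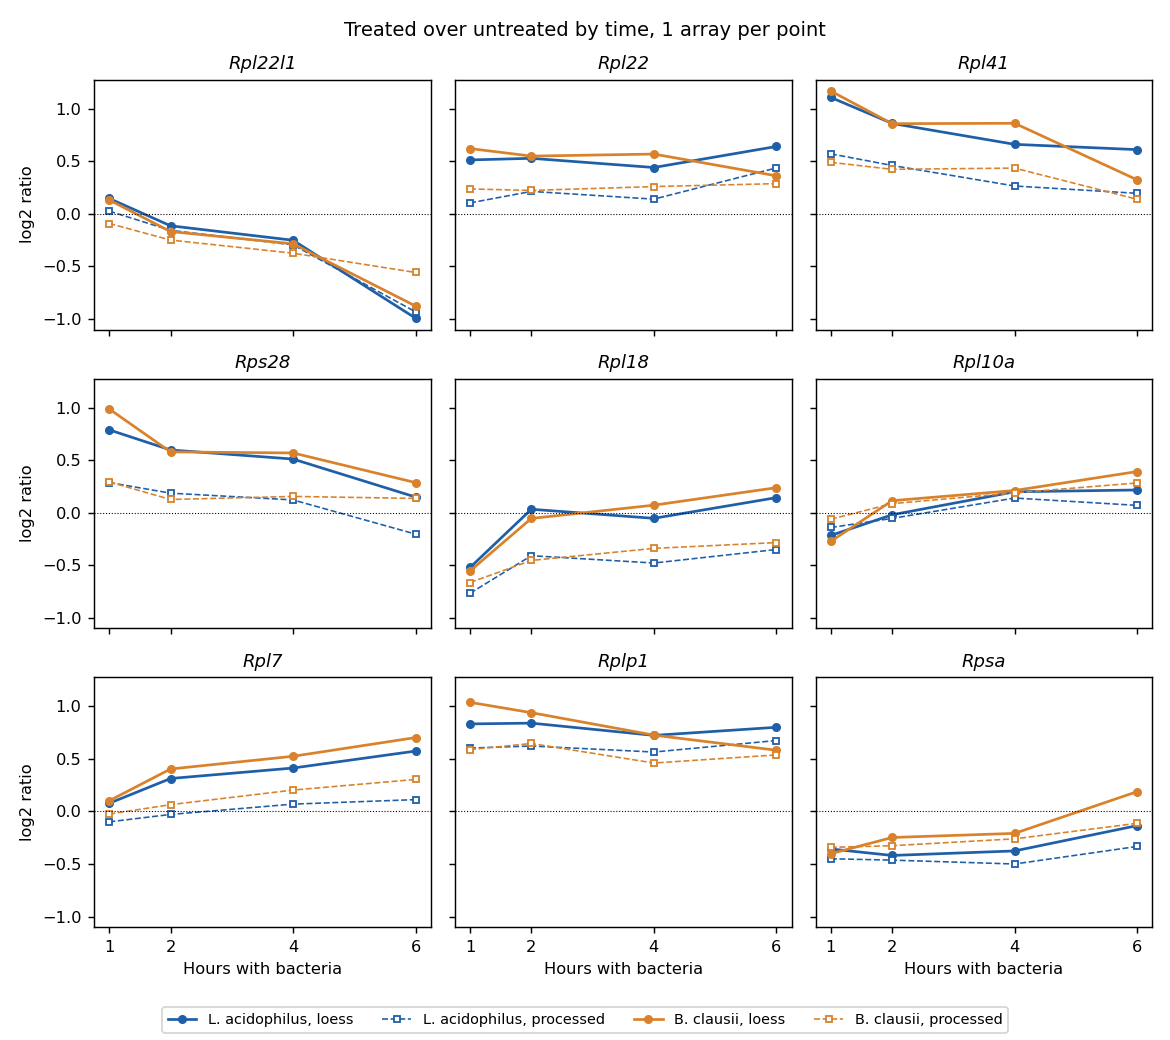
Log2 ratio of treated over untreated cells (vertical axis) at 1, 2, 4 and 6 h (horizontal axis) for 9 ribosomal protein genes, 1 array per point, L. acidophilus in blue and B. clausii in orange, loess as solid lines and processed signals as dashed lines. Rpl22l1 goes down to -0.99 and -0.88 at 6 h while Rpl22, by its bright probe, stays between 0.36 and 0.64. Rpl18 and Rpl10a start below 0 at 1 h.

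Few values reached 2-fold. By loess, Rpl41 did at 1 h with L. acidophilus, Rpl41, Rplp1 and Rps24 at 1 h with B. clausii, and Rps24 at 4 h with B. clausii, all higher. The share of all genes at least 2-fold higher was 0.176%, 0.0540%, 0.0878% and 0.162% at 1, 2, 4 and 6 h on the L. acidophilus arrays and 0.486%, 0.128%, 0.115% and 0.277% on the B. clausii arrays. In processed signals Rps24 was 2-fold higher at 1 and 4 h with L. acidophilus (2.94% and 2.13% of all genes) and on all 4 B. clausii arrays (3.83%, 3.13%, 3.23% and 3.73%). The dim Rpl3l was 2-fold lower at 1 h with B. clausii there (3.03% of all genes), and Rpl41 and Rplp1 did not reach 2-fold.

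The genes around ribosomal protein mRNAs were read from lists chosen with earlier results of these data known. Of 20 other genes with TOP mRNAs, 8 rose and 2 fell with L. acidophilus and 9 rose and 2 fell with B. clausii, with medians of 0.11 and 0.07, against the 23.7% and 18.5%, and 23.0% and 21.1%, of all genes given above. In processed signals 5 rose and 3 fell with L. acidophilus, and 4 rose and 4 fell with B. clausii. Npm1, a nucleolar chaperone, rose by 0.61 with each, and the elongation factor Eef2 fell by 0.24 and 0.23 by loess, but passed with neither in processed signals (-0.11 and -0.09, adjusted p 0.11 and 0.12). Of 16 genes of mTORC1 and TOP control, 3 rose and 5 fell with L. acidophilus and 4 rose and 6 fell with B. clausii, shares near those of all genes for the higher ones. In processed signals 5 rose and 4 fell with each. Ddit4, an inhibitor of mTORC1, rose by 0.63 and 0.96 and was lower late by a value of -0.76. Eif4ebp2, a translation repressor that mTORC1 inactivates, fell by 0.14 and 0.56, and was the one gene of that list that differed between bacteria (0.42, adjusted p 0.049), which it did not in processed signals (0.47, adjusted p 0.15). Of 6 transcription factors linked to ribosomal protein genes, 1 rose and 1 fell with L. acidophilus, and 2 rose and 2 fell with B. clausii. All genes had the shares given above, too few factors being listed to set apart from them. In processed signals 1 rose and 0 fell with L. acidophilus, and 2 rose and 1 fell with B. clausii. Myc rose by 0.35 and 0.48, Yy1 fell by 0.18 and 0.22 (adjusted p 0.066 and 0.082 in processed signals), and Gabpa averaged -0.16 with L. acidophilus (adjusted p 0.063) and fell by 0.39 with B. clausii. Of 8 chaperones and importers of ribosomal proteins, 0 rose and 3 fell with each bacterium (limma, adjusted p under 0.05). Of all genes 18.5% and 21.1% fell with L. acidophilus and B. clausii. Among the 3 were Grwd1, which escorts Rpl3, by 0.36 and 0.28, and the importin Ipo5 by 0.25 and 0.18. In processed signals 2 of the 8 fell with each, Grwd1 and Ipo5.

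In the promoter windows, CCGGAAG, the core letters of ETS factors such as Gabpa, stood on either strand in 26 of 63 ribosomal protein genes (41.3%) and 9.93% of all symbols. TCTCGCGA on either strand stood in 17.5% and 1.13%, AAGATGGC, letters of Yy1, in 9.52% and 3.19%, and TATAAA in 11.1% and 15.7%. Members with CCGGAAG had medians of 0.33 and 0.32 with L. acidophilus and B. clausii, and members without it 0.31 and 0.26. These are matches of letters in windows of 250 bases before and 50 from the start, not sites.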

How the data were processed

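The members and lists were chosen with earlier results of these data known. The deposited intensities (mean foreground and median background of each spot) are, per the file headers, from Feature Extraction 10.7.3.1 (10.5.1.1 per the submitters' processing notes), which also gave background-subtracted, dye-normalised processed intensities. The deposited log10 ratios set processed red against processed green, per the file headers, and the series table has them rounded. Deposited 0 or 1 flags (other) mark spots well above background and outliers.

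Intensities were corrected with normexp (offset 50), after outlier backgrounds above 3 times the array median were replaced, and loess-normalised within arrays (span 0.3) in limma 3.58.1 (R 4.3.3). Spots marked as outliers, 0.473% to 0.890% of an array, were dropped, no spot was saturated, and replicate spots were averaged. Between 39.6% and 51.5% of probes were well above background per channel. Probes well above background in a channel on at least 2 arrays and unflagged on all 8 were kept, the brightest standing for its gene. Limma (lmFit, eBayes, Benjamini-Hochberg, all 14807 genes) fitted bacterium and time with 3 residual degrees of freedom, so p-values measure the disagreement of the bacteria within times and hold no scatter between cultures. The script was tested on simulated data. Processed signals were the main alternative.

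Per contrast, the 6 called members with the largest change in each direction and 1 sign in all arrays entering (3 by smallest p where none passed) were named, with a fixed panel, the paralogs, the 3 genes with the widest probe ranges and up to 3 genes per list. In 5 probes the name qualified in only 1 annotation version, and these were not used. Some genes and a probe are not reported here, though the counts over all members include them.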

Additional observations from a re-analysis of the deposited data

Results flagged for a closer look

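The responses at 4 and 6 h differed from those at 1 and 2 h, by the test of that difference, in 26 of 80 ribosomal protein genes. Where 12.2% of all genes were higher late and 12.3% lower, 17 ribosomal protein genes were higher and 9 lower. Of those named, the loess log2 differences late minus early were 0.37 for Rpl18, 0.35 for Rpl10a, 0.33 for Rpl7, 0.30 for Rpl8, 0.29 for Rpl30, 0.27 for Rps4x, 0.25 for Rpl39, 0.24 for Rpl36a, 0.23 for Rplp0, 0.22 for Rpsa and 0.20 for Rpl13a. Those lower late were -0.60 for Rpl22l1, -0.38 for Rpl41, -0.36 for Rps28, -0.35 for Rpl26, -0.35 for Rpl37 and -0.33 for Rps15a. In processed signals all of these had the same sign and none passed the adjusted threshold, with adjusted p from 0.070 (Rpl7) to 0.63 (Rpl39). With median centring Rpl41, Rps28, Rpl26, Rpl37 and Rps15a were not called. With all kept probes averaged, Rpl7, Rps28 and Rps15a were not called. Time coincides with the position on the slide, and they cannot be told apart.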

How the results depend on the processing

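The fit sets the bacteria side by side within times; without the time term 53 members were called with L. acidophilus, 49 with B. clausii and 0 between bacteria, and 12 of 65 results lost their call, Rpl36a and Rpl39 among them. Processed signals and the deposited series table each gave 34 members called with L. acidophilus (25 higher, 9 lower; median 0.065), 42 with B. clausii (29 higher, 13 lower; 0.073), 0 late minus early, and a median over arrays of 0.068. There Rplp0 (-0.077), Rplp2 (-0.010), Rpl36a (-0.17) and Rps27 (-0.029) turned with L. acidophilus (Rps27 -0.030 in the series table), and Rplp2 (-0.0030) with B. clausii. Median centring gave 39 called with B. clausii (17 higher, 22 lower; median -0.045, against -0.25 over all genes), 68 for L. acidophilus minus B. clausii (median 0.36), 41 late minus early (median 0.28), an array median of 0.18 and 12 values past 2-fold. With B. clausii it turned Rpl13a (-0.15), Rpl3 (-0.17), Rpl36al (-0.085), Rpl39 (-0.27), Rps4x (-0.080), Rps27l (-0.13) and Rps27 (-0.12). A loess span of 0.1, chosen after seeing the data, gave medians of 0.11 and 0.12 with L. acidophilus and B. clausii, 0.11 over arrays, 2 values past 2-fold, and turned Rpl36a (-0.074) with L. acidophilus and Rpl3 (-0.0020) and Rps27 (-0.011) with B. clausii. Averaging probes gave medians of 0.21, 0.20 and 0.20, 3 values past 2-fold, Rplp0 at -0.0012 and Rpl23 at -0.036 with L. acidophilus, and Rpl23 at -0.14 with B. clausii. A normexp offset of 0 gave a B. clausii median of 0.22, 12 late minus early calls and 8 values past 2-fold. The deposited local background gave medians of 0.38, 0.34 and 0.36 and 13 late minus early calls. Loess without these spots gave a B. clausii median of 0.30, scaling 3 values past 2-fold, and a fold of 1.5 gave 99. Leaving out arrays gave 53 to 66 calls with L. acidophilus (median 0.29 to 0.34), 55 to 66 with B. clausii (0.25 to 0.30), 0 to 0 between bacteria (-0.027 to 0.037) and 1 to 30 late minus early (-0.0012 to 0.069). The cause was not tested. Over 26 settings, 1675 of 1988 values of named genes kept direction and call, and 23 reversed. The number of arrays limits the precision, and dim probes such as that of Rps24 lie nearest to background.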

Other observations

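Of the members not tested, Rps7 and Rps27a, which is made as a fusion with ubiquitin, were bright but had a flagged spot on 1 array. On the L. acidophilus arrays of 1, 2, 4 and 6 h Rps7 gave 0.68, 0.56, 0.61 and 1.57, and 0.59, 0.61 and 0.13 at 2, 4 and 6 h with B. clausii. On the L. acidophilus arrays of 1, 2 and 4 h Rps27a gave -0.14, 0.04 and 0.06, and it gave -0.33, -0.09, -0.07 and 0.04 at 1 to 6 h with B. clausii. Probes placed by the files on another chromosome than the gene in RefSeq were used for Rps27 (chromosome 9) and Rps29 (chromosome 2, with the gene on 12), and Rps29 averaged 0.38 and 0.35.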
